A study of Mus musculus with 6 samples.

Results

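The genes described here are 9 transient receptor potential (TRP) channel genes of sensory neurons, Trpa1, Trpv1, Trpv2, Trpm2, Trpm3, Trpm8, Trpc1, Trpc5 and Trpc6. They were taken by symbol from the 23029 genes of the deposited RPKM table (reads scaled for gene length and library depth), and all 9 were found. RNA was sequenced from 3 cell subsets sorted out of dorsal root ganglia (DRG) of mice, with 2 libraries per subset and 6 in all, so n = 2 for every mean ± SD. DP cells were positive for isolectin B4 (IB4) and for GINIP and are labelled as Mrgprd+ neurons, non-peptidergic nociceptors that end in the skin. C-LTMR cells, low-threshold mechanoreceptors with unmyelinated fibres, were negative for IB4 and positive for GINIP, and DN cells, the remaining cells, were negative for both. All 3 subsets came from animals labelled GINIP+/mcherry, so each subset carried the reporter allele. The sources used here do not give strain, age or sex. Nothing in the labels says that the replicates are separate animals. The p-values therefore reflect only how far these libraries spread, which may be technical.

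TRP channels are cation channels of the cell membrane, and in sensory ganglia several of them turn heat, cold or chemical irritants into nerve impulses. TRPV1 is the capsaicin and heat receptor, TRPA1 the receptor for mustard oil and other reactive irritants, and TRPM8 the menthol and cold receptor. TRPM3 and TRPM2 respond to heat or warmth, and TRPC channels open downstream of phospholipase C, which receptors coupled to Gq proteins activate.

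The channels divided by subset. Trpa1 and Trpc6 were highest in DP, at 19.6 ± 2.34 and 20.6 ± 0.603 RPKM. Trpv1 and Trpm2 were highest in DN, at 50.6 ± 18.6 and 3.28 ± 0.83 RPKM, and Trpv2 was the most abundant member in both GINIP+ subsets, at 59.8 ± 3.62 RPKM in DP and 47.1 ± 3.07 RPKM in C-LTMR. Levels in RPKM are per length and can be compared between genes, within the limits of the gene lengths the authors used. In bulk libraries, fewer cells that express a gene and less RNA per cell cannot be told apart.

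Upstream sequences are shown for members at opposite ends of this division. They are Trpc6 and Trpc5, whose mean levels ran DP, C-LTMR, DN from high to low, and Trpv1 and Trpm2, which were highest in DN. Each is the 250 bases before a RefSeq start site in build GRCm38.p6, written 5′ to 3′ on the gene's own strand. Capitals mark the letters TGTGGT or their reverse complement ACCACA, the core bound by RUNX factors, or TATAAA or TTTATA, the TATA box core. RUNX1 is known as a regulator of mouse non-peptidergic nociceptors and of TRP channel genes in them.
Trpc6, chr9:8543892-8544141, plus strand: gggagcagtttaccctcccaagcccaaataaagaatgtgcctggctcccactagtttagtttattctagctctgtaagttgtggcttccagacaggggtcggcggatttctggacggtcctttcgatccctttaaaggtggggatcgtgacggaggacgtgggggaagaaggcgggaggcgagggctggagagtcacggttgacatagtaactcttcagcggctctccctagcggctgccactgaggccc
Trpc5, chrX:144688181-144688430, minus strand: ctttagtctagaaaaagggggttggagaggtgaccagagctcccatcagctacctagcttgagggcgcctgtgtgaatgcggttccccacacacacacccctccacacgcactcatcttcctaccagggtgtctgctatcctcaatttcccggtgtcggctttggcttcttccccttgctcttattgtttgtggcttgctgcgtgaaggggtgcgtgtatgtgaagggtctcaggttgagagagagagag
Trpv1, chr11:73233899-73234148, plus strand: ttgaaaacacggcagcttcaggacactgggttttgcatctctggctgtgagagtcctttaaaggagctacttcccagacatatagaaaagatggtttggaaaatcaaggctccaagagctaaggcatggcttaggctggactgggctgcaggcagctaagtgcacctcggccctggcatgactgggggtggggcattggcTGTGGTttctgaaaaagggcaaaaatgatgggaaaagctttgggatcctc
Trpm2, chr10:77969873-77970122, minus strand: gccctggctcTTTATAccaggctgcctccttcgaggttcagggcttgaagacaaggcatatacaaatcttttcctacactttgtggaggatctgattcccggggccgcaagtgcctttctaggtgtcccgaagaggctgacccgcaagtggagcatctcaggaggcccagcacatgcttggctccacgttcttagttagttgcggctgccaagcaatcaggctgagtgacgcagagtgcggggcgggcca

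The start sites of Trpc6, Trpc5 and Trpm2 were those of the deposited table, while the Trpv1 window ends at 73234148, upstream of the start at 73238259 in that table. The RUNX letters occurred in the Trpv1 window and the TATA letters, as the reverse complement, in the Trpm2 window, and the 2 motifs overlapped in none of the printed windows. In the Trpm2 window the TATA letters lay near the upstream end, far from the start site, and a function of either motif was not tested. The Trpc6 and Trpc5 windows held neither motif. Of 32851 windows of this length over all genes, 14.0% held the RUNX letters and 12.4% the TATA letters. RefSeq windows were found for 8 of the 9 members, the exception being Trpa1, and of their 11 windows 2 held the RUNX letters and 2 the TATA letters.

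The depth estimated from steps in low RPKM values was 32.3 to 42.0 M reads per library. Over 13478 genes, the log2 values of the 2 replicates had Pearson correlations of 0.9964 (DP), 0.9947 (C-LTMR) and 0.9875 (DN). Mrgprd and Th, markers of DP and C-LTMR, were where the labels place them. Gfra2, listed as a marker of both, was at 138.9 and 134.0 RPKM in DP, 180.2 and 187.4 in C-LTMR and 4.99 and 8.60 in DN libraries. Mrgprd was at 219.8 and 277.2 RPKM in DP libraries, 1.32 and 2.01 in C-LTMR libraries and 0.345 and 0.953 in DN libraries. Th was at 1017 and 1038 RPKM in C-LTMR libraries, against 48.8 and 61.7 in DP and 31.7 and 14.2 in DN. The 6 peptidergic nociceptor markers summed to 8590 to 9539 RPKM in DN, against 1360 to 1530 in DP and 1587 to 1658 in C-LTMR. Calcb alone of them was lowest in DN, at 281.6 and 232.8 RPKM, against 576.2 and 520.5 in DP and 343.4 and 352.7 in C-LTMR. DN is labelled as remaining sensory neurons, but its libraries also held glial and vascular RNA. The 10 glia markers summed to 8823 to 18456 RPKM in DN, against 1267 to 1761 in DP and 2374 to 3271 in C-LTMR, with none at 0 in any library. Apoe and Fabp7 carried most of the DN replicate 2 sum, at 12918 and 3542 RPKM, against 5710 and 1282 in DN replicate 1. Mbp, Pmp22 and Prx were lower in DN replicate 2 than in DN replicate 1, and the other markers were higher. Pmp22 was higher in C-LTMR libraries, at 1203 and 1166 RPKM, than in DN libraries, at 767.5 and 679.9. The 8 endothelial and mural markers summed to 233.3 to 406.3 RPKM in DN, against 14.3 to 16.2 in DP and 80.2 to 83.0 in C-LTMR, with 1 (Emcn) at 0 in 1 C-LTMR library. Rgs5 alone gave 79.5 and 82.3 RPKM of the C-LTMR sums, and the other 7 summed to 226.6 and 393.6 RPKM in DN libraries, against 7.84 and 9.34 in DP libraries and 0.694 and 0.737 in C-LTMR libraries. The 8 immune markers summed to 203.0 to 229.6 RPKM in DP, 5.35 to 9.72 RPKM in C-LTMR and 57.2 to 105.6 RPKM in DN, with S100a8 and S100a9 each at 0 in 1 C-LTMR library. S100a8, S100a9 and Lyz2 carried most of the DP sums, and the other 5 summed to 7.76 and 9.42 RPKM in DP libraries, 4.97 and 9.57 in C-LTMR libraries and 23.5 and 44.5 in DN libraries. The part of these cells in the TRP channel differences was not tested.

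Differences were tested with limma on log2(RPKM + 0.5), over 13478 genes with at least 0.5 RPKM in at least 2 libraries. A fold change on this scale understates the change of low genes. Calls needed a Benjamini-Hochberg adjusted p under 0.05 together with a log2 fold change of 1 or more in size. Of the 9 members 8 passed the filter, and Trpm8 did not. In DP over C-LTMR, 2 of the 8 tested members were called higher and 0 lower, while 11.3% of all genes tested were called, 4.56% higher and 6.77% lower in DP. In DP over DN, 4 members were higher and 2 lower, where 28% of all genes were called, 6.57% higher and 21.4% lower. Trpc5, 1 of these 4, passed the filter only through its DP libraries. In C-LTMR over DN, 1 was higher and 3 lower, where 27.1% of all genes were called, 7.26% higher and 19.8% lower. The median log2 fold change of the tested members was 0.62, 0.63 and -0.23 in these 3 comparisons, beside -0.043, -0.15 and -0.058 over all genes tested. The comparisons share libraries, so they are not independent of each other.

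**Figure D1:**
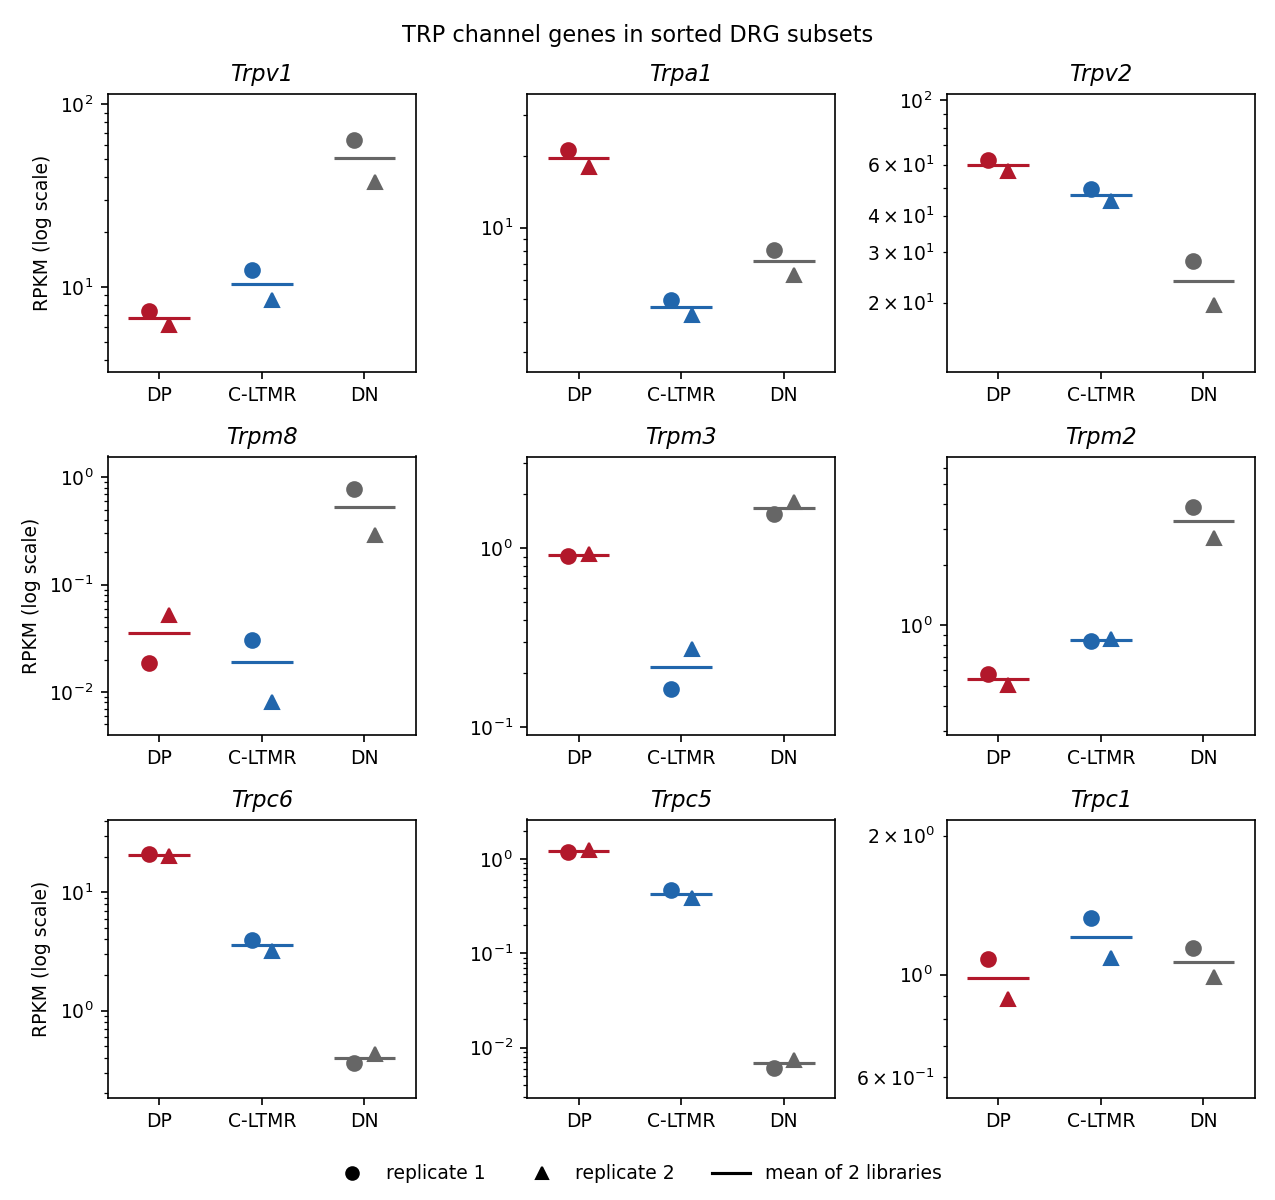
RPKM (log axis) of the 9 TRP channel genes in DP, C-LTMR and DN, where circles are replicate 1, triangles replicate 2 and lines the mean of 2 libraries. Trpa1, Trpc6 and Trpc5 sit highest in DP, Trpv1, Trpm8, Trpm3 and Trpm2 highest in DN, and Trpc1 lies between 0.883 and 1.33 RPKM in all 6 libraries.

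Trpv1 (Entrez 193034, chromosome 11, 73238259 to 73260507) had 7.37 and 6.17 RPKM in DP libraries, 12.3 and 8.44 in C-LTMR libraries and 63.8 and 37.5 in DN libraries. Both DN libraries lay far above the other 4, and the DP and C-LTMR libraries did not overlap either. DP was 7.48-fold lower than DN in means of RPKM (log2 fold change -2.77, SE 0.274, limma adjusted p = 0.000193). C-LTMR was 4.88-fold lower than DN (log2 fold change -2.21, SE 0.274, limma adjusted p = 0.000555). DP and C-LTMR did not pass against each other (log2 fold change -0.56, 95% interval -1.22 to 0.092, limma adjusted p = 0.177). The capsaicin receptor gene was thus still measurable in both GINIP+ subsets, where it ranked above 72.6% (DP) and 76.6% (C-LTMR) of all listed genes, against 92.5% in DN. The DN libraries differed 1.7-fold in Trpv1. The glia markers summed to 8823 RPKM in DN replicate 1 and 18456 in DN replicate 2, the library with less Trpv1. Of these markers, Mbp, Pmp22 and Prx were lower in that library, and a link of glia with Trpv1 was not tested. Without DN replicate 1 the log2 fold change of DP over DN was -2.39, and without DN replicate 2 it was -3.15.

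Trpa1 (Entrez 277328, chromosome 1, 14872648 to 14918862), the irritant receptor gene, had 21.3 and 18.0 RPKM in DP libraries, 4.96 and 4.28 in C-LTMR libraries and 8.06 and 6.34 in DN libraries. The 3 subsets did not overlap, with DP highest and C-LTMR lowest. DP was 4.24-fold higher than C-LTMR (log2 fold change 1.97, SE 0.152, limma adjusted p = 0.000184) and 2.72-fold higher than DN (log2 fold change 1.39, SE 0.152, limma adjusted p = 0.000308). C-LTMR over DN had an adjusted p under the threshold but a log2 fold change of -0.58, short of the fold criterion (limma adjusted p = 0.015). Trpa1 and Trpv1 were therefore in opposite order between DP and DN. Within DP, Trpa1 was the higher of the pair, at 19.6 ± 2.34 against 6.77 ± 0.846 RPKM for Trpv1, and within DN it was the lower, at 7.2 ± 1.22 against 50.6 ± 18.6 RPKM.

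Trpv2 (Entrez 22368, chromosome 11, 62574486 to 62600305), a TRPV1 relative that in rat was first described as a channel for high noxious heat, had 62.3 and 57.2 RPKM in DP libraries, 49.2 and 44.9 in C-LTMR libraries and 27.9 and 19.6 in DN libraries. The subsets did not overlap, and the order ran DP, C-LTMR, DN. DP was 2.52-fold higher than DN (log2 fold change 1.33, SE 0.164, limma adjusted p = 0.00051). C-LTMR over DN lay just under the fold criterion (log2 fold change 0.99, SE 0.164, limma adjusted p = 0.00205) and was called under 4 of the alternatives, without C-LTMR replicate 2 (1.06), without DN replicate 1 (1.24), with a pseudocount of 0.1 (1.006) and after quantile normalization (1.03). DP over C-LTMR did not pass (log2 fold change 0.34, 95% interval -0.051 to 0.73, limma adjusted p = 0.172). Trpv2 ranked above 93.7%, 92.0% and 85.9% of all listed genes in DP, C-LTMR and DN.

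Trpm8 (Entrez 171382, chromosome 1, 88306712 to 88388851), the cold receptor gene, had 0.0186 and 0.0519 RPKM in DP libraries, 0.0304 and 0.00806 in C-LTMR libraries and 0.778 and 0.288 in DN libraries. With the exon length of GENCODE these are an estimated 3.59 and 9.16 reads in DP, 4.8 and 1.2 in C-LTMR and 139.7 and 42.8 in DN. C-LTMR replicate 2 thus lay under the floor of 3 reads, and DP replicate 1 and C-LTMR replicate 1 lay close above it. DP replicate 2, at 9.16 reads, was further above it but still low, while both DN libraries were far above it. The ratio of DN to DP from these reads was 15.8 (95% exact interval 8.99 to 30.2) and that of DN to C-LTMR 28.3 (12.8 to 78.2). These intervals take the estimated reads, rounded, as counts and cover counting error only, not error in the length or depth used. In means of RPKM, DN was 15.1-fold above DP, and 8.16-fold without DN replicate 1, 28.7-fold without DP replicate 2 and 10.3-fold without DP replicate 1. Against C-LTMR it was 27.7-fold above, and 15.0-fold without DN replicate 1, 66.1-fold without C-LTMR replicate 1 and 17.5-fold without C-LTMR replicate 2. In the fit without a filter on low values, Trpm8 was called in 0 comparisons. Its log2 fold change there was -0.91 in DP over DN (limma adjusted p = 0.0709) and -0.95 in C-LTMR over DN (limma adjusted p = 0.0648). An annotated antisense gene, 4930453O03Rik, shares 388 of its 4606 exon bases, and the sources used here do not say whether counting used strand.

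Trpm3 (Entrez 226025, chromosome 19, 22139117 to 22989884), whose channel responds to heat and to the steroid pregnenolone sulfate, had 0.907 and 0.934 RPKM in DP libraries, 0.164 and 0.273 in C-LTMR libraries and 1.57 and 1.81 in DN libraries. The subsets did not overlap, and C-LTMR was lowest. C-LTMR was 7.72-fold lower than DN (log2 fold change -1.61, SE 0.135, limma adjusted p = 9.55e-05). DP over C-LTMR was 4.21-fold in means of RPKM and reached a log2 fold change of 0.99 on the scale tested (SE 0.135, limma adjusted p = 0.00203), just short of a call. It was called when DP replicate 1 (1.002) or C-LTMR replicate 2 (1.10) was left out, with a pseudocount of 0.1 (1.70), and when rescaled by the median ratio (1.02) or to genes of all sensory neurons (1.15). DP over DN was not called (log2 fold change -0.62, limma adjusted p = 0.00663) and was at 0.037 after quantile normalization. Trpm3 was somewhat higher in the second library of each subset, where the glia sum was also higher. C-LTMR had a higher glia sum than DP (2374 to 3271 against 1267 to 1761 RPKM) but less Trpm3. A link between Trpm3 and glia was not tested. Genes on the opposite strand, C330002G04Rik and Gm27151, share 351 and 277 of its 14491 exon bases.

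Trpm2 (Entrez 28240, chromosome 10, 77907722 to 77969872), a channel gated by ADP-ribose and by oxidative stress, had 0.578 and 0.51 RPKM in DP libraries, 0.837 and 0.857 in C-LTMR libraries and 3.87 and 2.69 in DN libraries. Both DN libraries were higher than all others. DP was 6.03-fold lower than DN (log2 fold change -1.84, SE 0.169, limma adjusted p = 0.000142), and C-LTMR 3.87-fold lower (log2 fold change -1.47, SE 0.169, limma adjusted p = 0.000389). DP and C-LTMR did not pass against each other (log2 fold change -0.37, 95% interval -0.77 to 0.036, limma adjusted p = 0.155).

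**Figure D2:**
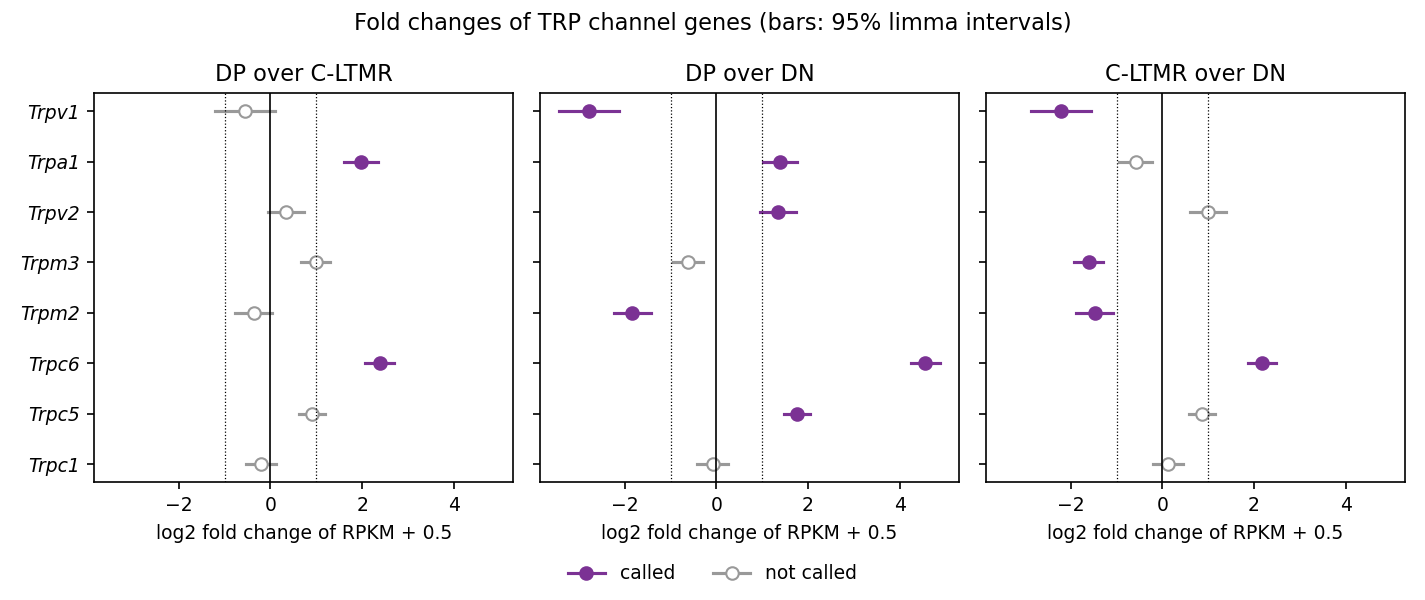
Log2 fold change of RPKM + 0.5 for the 8 TRP channel genes tested, in DP over C-LTMR, DP over DN and C-LTMR over DN, with 95% limma intervals, filled where called and dotted lines at the fold criterion of 1. Trpc6 is called in all 3 panels, at 2.39, 4.56 and 2.18, and Trpv1 and Trpm2 are called lower in both GINIP+ subsets than in DN.

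Among the TRPC members, Trpc6 (Entrez 22068, chromosome 9, 8544142 to 8680741), whose channel is opened by diacylglycerol, had 21.1 and 20.2 RPKM in DP libraries, 3.93 and 3.2 in C-LTMR libraries and 0.361 and 0.432 in DN libraries. The subsets were separated without overlap, with replicates close together in each. DP was 5.79-fold higher than C-LTMR (log2 fold change 2.39, SE 0.131, limma adjusted p = 5.59e-05). DP was 52.1-fold higher than DN in means of RPKM (log2 fold change 4.56, SE 0.131, limma adjusted p = 2.66e-06). C-LTMR was 8.99-fold higher than DN (log2 fold change 2.18, SE 0.131, limma adjusted p = 2.43e-05). In the TMM-normalized table, whose values were tested as log2(value + 1), these log2 fold changes were 2.59, 5.68 and 3.09. Trpc6 was the member called in all 3 comparisons.

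Trpc5 (Entrez 22067, chromosome X, 144381671 to 144688180), a cold-sensitive TRPC channel gene, had 1.2 and 1.26 RPKM in DP libraries, 0.468 and 0.385 in C-LTMR libraries and 0.00617 and 0.00745 in DN libraries. The DN values are an estimated 1 read in each library, below the floor of 3 reads, against 208.6 and 200.4 reads in DP and 66.7 and 51.6 in C-LTMR. The ratio of DP to DN from these reads was 181.6 (95% exact interval 50.0 to 1505), and that of C-LTMR to DN was 63.2 (17.1 to 527.8), for counting error only. On the scale tested, DP over DN was called (log2 fold change 1.77, SE 0.118, limma adjusted p = 3.79e-05), a value that the pseudocount limits. Trpc5 passed the filter on low values only through its DP libraries, where it was highest, so its entry into the test was not independent of this difference. It was also called in the fit without that filter. DP over C-LTMR was 2.88-fold in means of RPKM and stayed under the fold criterion (log2 fold change 0.90, SE 0.118, limma adjusted p = 0.00169), as did C-LTMR over DN (log2 fold change 0.87, SE 0.118, limma adjusted p = 0.000844). With a pseudocount of 0.1, the log2 fold changes were 1.34 in DP over C-LTMR and 2.30 in C-LTMR over DN, and both were called. The first was also called relative to genes of all sensory neurons (1.11) and the second after quantile normalization (1.09).

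Trpc1 (Entrez 22063, chromosome 9, 95706629 to 95750358), a subunit that assembles with other TRPC proteins, had 1.08 and 0.883 RPKM in DP libraries, 1.33 and 1.09 in C-LTMR libraries and 1.14 and 0.988 in DN libraries. The libraries of DP and DN overlapped, as did those of C-LTMR and DN. None of the comparisons was called, with log2 fold changes of -0.20 in DP over C-LTMR (95% interval -0.54 to 0.13), -0.080 in DP over DN (-0.42 to 0.26) and 0.12 in C-LTMR over DN (-0.21 to 0.46). The limma adjusted p was 0.331, 0.647 and 0.475. These intervals stay inside the fold criterion of 1 in both directions. The direction is not settled, because relative to 17 genes of all sensory neurons it was 0.068 in DP over C-LTMR and -0.17 in C-LTMR over DN.

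Over the whole set, 8 of 9 members had libraries that did not overlap in DP against C-LTMR, 8 in DP against DN and 8 in C-LTMR against DN. The 9 include Trpm8, which was not among the genes tested. Its libraries overlapped in DP against C-LTMR but not in either comparison with DN. The same held for 71.1%, 83% and 80.8% of all genes tested, so a lack of overlap between 2 libraries and 2 is common here. Summed over the 9 members, the level was 115.8 and 105.2 RPKM in DP libraries, 73.3 and 63.4 in C-LTMR libraries and 107.4 and 69.6 in DN libraries. Their make-up differed more than their sum. Trpv1 made up 6.36% and 5.87% of the sum in DP, 16.8% and 13.3% in C-LTMR and 59.4% and 53.8% in DN. Trpv2 made up 53.8% and 54.4% in DP, 67.2% and 70.8% in C-LTMR and 25.9% and 28.1% in DN. The shares of Trpa1 and Trpc6 in DP were each between 17.1% and 19.2%, while in C-LTMR Trpa1 took 6.77% and 6.74% and Trpc6 5.36% and 5.04%. Shares within a library do not depend on how libraries are scaled to each other, but they do depend on the gene lengths. The lengths implied by the ratio of the deposited tables were 2625 bases for Trpv1, 3385 for Trpc6, 2865 for Trpv2 and 4439 for Trpa1, beside GENCODE exon lengths of 3560, 5066, 3080 and 4263.

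**Figure D3:**
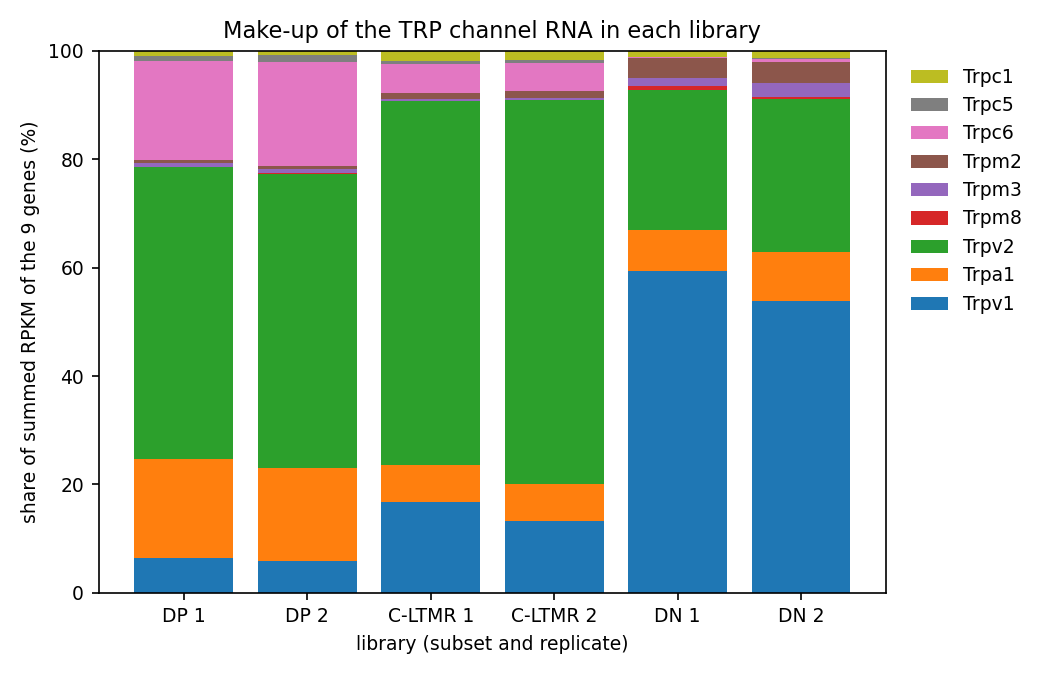
Share (%) of each of the 9 TRP channel genes in their summed RPKM, with 1 bar per library. Trpv2 makes up the largest share in DP and C-LTMR libraries and Trpv1 in DN libraries, at 59.4% and 53.8%.

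The 19 other TRP superfamily genes give the surroundings of these members, and 11 of them passed the filter on low values. Trpc7, like Trpc6 a TRPC channel opened by diacylglycerol, was highest in DN, at 0.135 ± 0.0701 RPKM in DP and 0.05 ± 0.0336 in C-LTMR, against 4.9 ± 0.485 in DN (log2 fold change -3.09 in DP over DN and -3.29 in C-LTMR over DN, limma adjusted p = 9.29e-06 and 7.46e-06). Trpc6 and Trpc7 were therefore called in opposite directions against DN. Trpc7 passed the filter only through its DN libraries, where it was highest. Trpc4, the nearest relative of Trpc5, was at 2.35 ± 0.178, 2.42 ± 0.479 and 3.39 ± 0.989 RPKM in DP, C-LTMR and DN and was not called.

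Outside the TRPC branch, Trpv4, a channel responsive to osmotic swelling, was called lower in DP than in C-LTMR (0.216 ± 0.0263 against 1.61 ± 0.0515 RPKM, log2 fold change -1.56, limma adjusted p = 0.00025). Pkd2, a polycystin gene, was at 0.655 ± 0.0416 RPKM in DP, 0.539 ± 0.176 RPKM in C-LTMR and 4.0 ± 1.34 RPKM in DN, and was called lower in both GINIP+ subsets than in DN. The lysosomal channel gene Mcoln1 was abundant everywhere, at 63.1 ± 1.3, 57.1 ± 1.65 and 38.4 ± 5.99 RPKM, and was not called. Trpm4, Trpm7, Trpc2, Mcoln2 and Pkd2l2 were also not called in any comparison, with Trpm7, a channel fused to a kinase, at 3.75 ± 0.338, 4.0 ± 0.162 and 3.7 ± 0.388 RPKM. In all, 1 of the 11 was higher and 1 lower in DP over C-LTMR, 1 higher and 2 lower in DP over DN, and 1 higher and 2 lower in C-LTMR over DN, where 11.3%, 28% and 27.1% of all genes tested were called, so in the DN comparisons the share was close to that of all genes. The median log2 fold change of the 11 was -0.026, -0.11 and 0.14, beside -0.043, -0.15 and -0.058 over all genes.

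**Figure D4:**
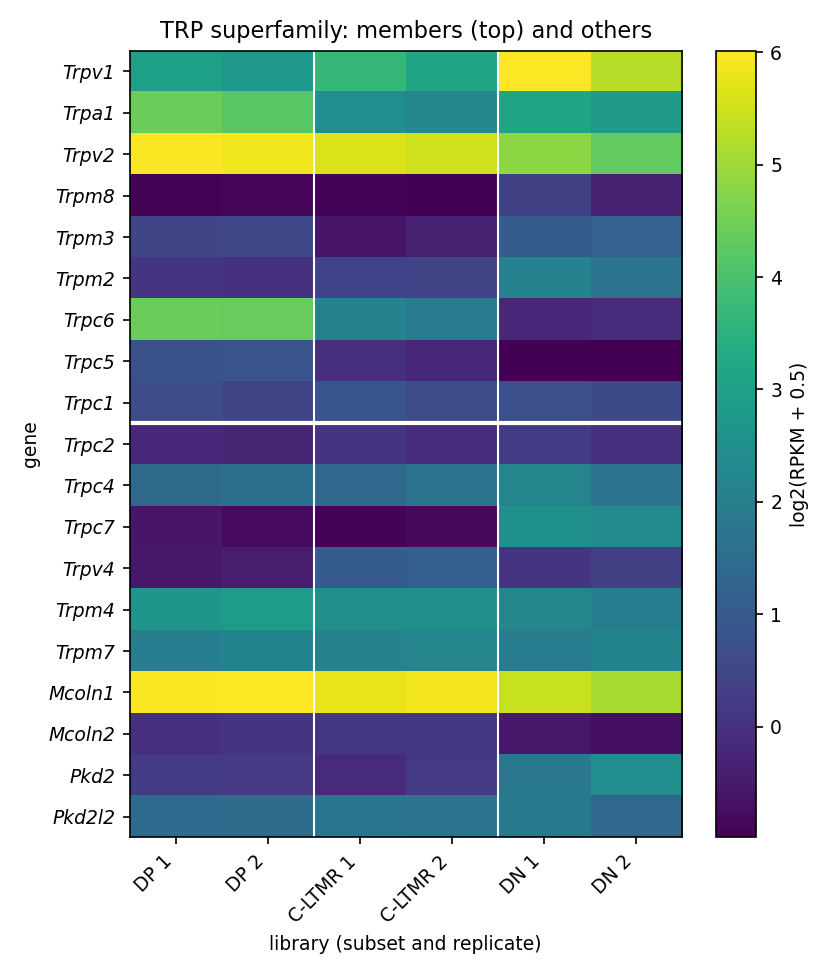
Log2(RPKM + 0.5) of the 9 members (above the white line) and of the 10 other TRP superfamily genes named in the text, in the 6 libraries. Trpc6 is brightest in DP, at 21.1 and 20.2 RPKM, Trpv1 in DN, at 63.8 and 37.5 RPKM, and Trpv2 and Mcoln1 are bright in every library.

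Of 28 genes of TRP channel partners and regulators, 25 passed the filter. In DP over C-LTMR 4 were higher and 4 lower, in DP over DN 4 higher and 5 lower, and in C-LTMR over DN 2 higher and 3 lower, while 11.3%, 28% and 27.1% of all genes tested were called. The median log2 fold change of the 25 was 0.031, 0.12 and 0.25, beside the -0.043, -0.15 and -0.058 of all genes. Prkca, a protein kinase C gene, was at 104.1 ± 7.97 RPKM in DP, 19.0 ± 0.198 RPKM in C-LTMR and 4.43 ± 0.509 RPKM in DN, the order of Trpc6 (log2 fold changes 2.42, 4.41 and 1.99, all called). Plcb3, a phospholipase C gene, was called higher in DP than in C-LTMR, at 73.2 ± 0.148 against 18.1 ± 1.83 RPKM (log2 fold change 1.99), while Plcb1 was called lower, at 0.95 ± 0.168 against 3.62 ± 0.223 (-1.51). Tmem100, a membrane protein that in mouse DRG neurons adjusts the coupling of TRPA1 and TRPV1, was at 6.88 ± 0.493 RPKM in DP, 35.4 ± 9.24 RPKM in C-LTMR and 138.2 ± 16.8 RPKM in DN (log2 fold changes -2.26, -4.23 and -1.97, all called). That was the order of the Trpv1 means, but Trpv1 was not called in DP over C-LTMR. Itpr3, an inositol trisphosphate receptor gene, was at 0.542 ± 0.144 and 0.403 ± 0.156 RPKM in DP and C-LTMR, against 4.97 ± 1.61 in DN (-2.37 and -2.58, both called).

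The genes whose pattern was most like each member were found by the root mean square difference of centred log2(RPKM + 0.5) values over the 6 libraries, among 13478 genes. For Trpa1 they were Rgs3 (difference 0.0549) and Bank1 (0.132), and for Trpv1 Mrap2 (0.169) and Drp2 (0.171). Trpv2 was most like Lrrc59 (0.0539) and Gys1 (0.0762), Trpm2 most like Adcy3 (0.0785) and Kcnip1 (0.0928), and Trpm3 most like Ccdc34 (0.0847) and Col27a1 (0.0929). Trpc6 was nearest to 1700011I03Rik (0.123) and Cd55 (0.123), Trpc5 to Rasl10a (0.0695) and Cadm1 (0.0767), and Trpc1 to Eif2c4 (0.041) and Aurka (0.0424). Rgs3 illustrates such a match, at 11.5 and 10.7 RPKM in DP, 2.62 and 2.19 in C-LTMR and 4.11 and 3.38 in DN. For low genes the added 0.5 shrinks the changes compared, so a match there need not hold in RPKM. Trpc5 was at 1.2 and 1.26 RPKM in DP and 0.00617 and 0.00745 in DN. Its match Rasl10a was at 14.8 and 15.4 in DP and still at 4.57 and 4.29 in DN. Bank1, matched to Trpa1, was at 1.98 and 1.99 in DP and 0.0873 and 0.0763 in C-LTMR. With 2 libraries per subset, a root mean square difference describes 3 levels and the spread around them.

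The balance of higher and lower calls over all genes moved with how libraries were scaled to each other. In DP over C-LTMR 615 genes were called higher and 912 lower, against 1011 and 593 once levels were set relative to 17 genes of all sensory neurons, where the median of all genes was 0.28 instead of -0.043. In DP over DN 885 were higher and 2891 lower, against 1599 and 2012 after quantile normalization (median 0.13) and 615 and 1030 in the TMM-normalized table. In C-LTMR over DN 978 were higher and 2672 lower, against 618 and 3483 relative to the sensory neuron genes (median -0.44), 1600 and 1932 after quantile normalization (median 0.15) and 594 and 968 in the TMM-normalized table. In the last comparison the members' split was 1 higher and 3 lower, against 3 higher and 1 lower after quantile normalization, where Trpm2 and Trpm3 were at -0.99 and -0.94 and were not called. In the TMM-normalized table, which lists 4 of the members, it was 1 higher and 1 lower, where 23.6% of the genes there were called, and with a pseudocount of 0.1 it was 3 higher and 3 lower. The same table gave 2 members higher and 0 lower in DP over C-LTMR, where 12.7% of its genes were called, and 3 higher and 1 lower in DP over DN, where 24.8% were called. Trpv1, Trpa1 and Trpc6 kept each of their calls, by both direction and threshold, under all 17 alternatives in every comparison.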

How the data were processed

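Sorted cells were lysed directly, and 50 ng of their total RNA was amplified before TruSeq library preparation, per the labels' protocols. CASAVA 1.8.2, edgeR 2.6.2 and build GRCm38 (mm10) are named in the submitters' processing notes. The sources used here do not give the aligner, annotation or use of strand. The authors deposited RPKM values of 23029 genes (19 repeated symbols) and a second table of 6620 genes whose unit is a TMM-normalized signal, not a whole number. Each of its genes reached 892.3 in both libraries of at least 1 subset.

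RPKM values were taken as log2(RPKM + 0.5), genes with at least 0.5 RPKM in at least 2 libraries were kept, and all 6 libraries were fitted together with limma 3.58.1 under R 4.3.3 (empirical Bayes with a trend, 3 residual and a median of 3.61 prior degrees of freedom), checked on simulated data. Adjusted p-values are Benjamini-Hochberg over all genes tested. Depth was estimated with Python 3.11.15 (numpy 2.4.6, pandas 2.3.3, scipy 1.17.1, figures with matplotlib 3.10.9) from the commonest low value of RPKM times GENCODE release 21 mouse exon length, taken as 1 read. Whole reads could not be recovered for most genes, so no count model was fitted, and floors of 3 reads and intervals cover counting error only. For the intervals, estimated reads were summed per subset and rounded.

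Some genes of these lists are counted but not reported here by name. Named were all members, other TRP genes that passed the filter, at most 4 called partners per comparison with the largest change, and the 2 genes most like each member. Replicate numbers come from the sample titles. Members and lists were chosen with earlier results of these data known. Alternatives were 2 pseudocounts, 2 filters, the TMM-normalized table, 3 scalings, no trend, 4 libraries only, a replicate block and leaving out each library.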

Additional observations from a re-analysis of the deposited data

How the results depend on the processing

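Each of the 24 fold changes of tested members was recomputed under up to 17 alternatives, and the cause of the changes below was not tested. Counts of all genes called were lower in the TMM-normalized table, which lists 6620 genes: 843 against 1527 in DP over C-LTMR, 1645 against 3776 in DP over DN and 1562 against 3650 in C-LTMR over DN. Of the members, 4 against 2 were called in DP over C-LTMR with a pseudocount of 0.1 and 4 relative to genes of all sensory neurons (Trpm3 and Trpc5 added), and 2 against 4 in C-LTMR over DN in the TMM-normalized table, which lacks Trpm2 and Trpm3. Leaving out 1 library gave 1421 to 1534, 3615 to 3995 and 3383 to 3921 called genes and 2 to 3, 6 to 6 and 4 to 5 called members in the 3 comparisons. Directions turned for values that were not called: Trpc1 relative to genes of all sensory neurons (0.068 in DP over C-LTMR and -0.17 in C-LTMR over DN), after quantile normalization (0.61 in DP over DN) and over the left-out libraries in DP over DN (-0.18 to 0.015), and Trpm3 in DP over DN after quantile normalization (0.037). Deviations of replicates with the same number correlated between subsets across genes (r = 0.47 for DP and C-LTMR, 0.12 for DP and DN and 0.32 for C-LTMR and DN), but the labels do not say what the number marks. With the replicate block, 1543, 3784 and 3652 genes and 2, 6 and 4 members were called, and no member's call changed. Depth limits Trpm8 in DP and C-LTMR, at an estimated 1.2 to 9.16 reads per library, and Trpc5 in DN, at 1 read per library, beside the floor of 3 reads.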
